A study of Mus musculus with 20 samples.

Results

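The 10 genes described here are the D cyclins *Ccnd1*, *Ccnd2* and *Ccnd3*, the E cyclins *Ccne1* and *Ccne2*, the kinases *Cdk4*, *Cdk6* and *Cdk2*, and the phosphatases *Cdc25a* and *Cdc25b*. They were taken by name as the genes that carry a cell through G1, and 28 probesets of the array are annotated to exactly 1 of them. Where a gene had several, the brightest on average over the 20 arrays was used and the others served as a check. The members are 10 of 18193 genes measured in this way. All 10 were tested, as no filter on low values was applied.

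In the textbook account, D cyclins are made in response to mitogens and bind Cdk4 or Cdk6. Cyclin E then binds Cdk2. Both kinase complexes phosphorylate the retinoblastoma protein pRb and so release E2F transcription factors, which switch on genes of DNA synthesis, *Ccne1*, *Ccne2* and *Cdc25a* among them. Cdc25 phosphatases remove the inhibitory phosphates from Cdks. In epidermis this machinery works mainly in the basal layer and the hair follicle, whose cells divide, and is shut down as keratinocytes differentiate. p53 restrains it through the Cdk inhibitor p21, encoded by *Cdkn1a*.

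The data are Affymetrix MOE430 2.0 arrays of bulk tissue from FVB mice, and each value is a probeset's log2 signal after RMA, a method that corrects background, sets all arrays to 1 distribution and summarises the probes. The 8 p53_pRb tumors came from k14Cre;p53loxP/loxP;pRbloxP/loxP mice, 7 p53 tumors from k14Cre;p53loxP/loxP mice, and 5 normal skin samples from wild type mice aged 2 months. The labels give no age for the tumors. Cre under the keratin K14 promoter deletes the floxed alleles in stratified epithelia alone, so vessels, stroma and blood cells within a tumor keep them. By histology, 5 tumors were undifferentiated or spindle cell carcinomas (3 p53_pRb and 2 p53), 4 were mixed, with differentiated and undifferentiated areas (1 p53_pRb and 3 p53), and 6 were poorly differentiated (4 p53_pRb and 2 p53).

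The classes differed in more than these genes. *Rb1*, the deleted gene of the p53_pRb tumors, lay between 6.55 and 8.14 in p53_pRb tumors, 7.85 and 8.84 in p53 tumors, and 8.95 and 9.26 in normal skin. The 3 undifferentiated or spindle p53_pRb tumors, at 8.02 to 8.14, were within the range of p53 tumors. *Trp53* was not analysed here. The mean log2 signal of 10 skeletal muscle markers was 5.09 to 8.78 in tumors and 13.41 to 13.99 in skin, and that of 8 adipocyte markers 5.35 to 7.75 in tumors and 11.05 to 11.35 in skin. That of 11 keratinocyte markers was 5.10 to 7.91 in undifferentiated or spindle, 6.01 to 11.09 in mixed and 11.63 to 12.19 in poorly differentiated tumors, against 11.71 to 12.06 in skin. The 3′ minus 5′ difference of *Actb*, a sign of RNA integrity, was 0.24 to 0.38 in undifferentiated or spindle, 0.38 to 0.66 in mixed and 0.42 to 0.82 in poorly differentiated tumors, against 0.50 to 1.19 in skin. In bulk tissue, fewer cells of a type and less RNA per cell cannot be told apart.

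Set against normal skin, tumors had more RNA of the E cyclin *Ccne2*, of *Cdk2* and *Cdk6*, of *Cdc25a* and of *Ccnd1*, and no member was called lower. All differences are on the log2 scale. *Ccne2* was higher by 2.92 (SE 0.42), *Cdk2* by 1.13 (SE 0.27), *Cdk6* by 0.89 (SE 0.18), *Cdc25a* by 0.63 (SE 0.23) and *Ccnd1* by 1.25 (SE 0.48). Thus 5 of 10 members passed an adjusted p of 0.05 in limma as higher, where 17.7% of all genes did, and 0 of 10 as lower, where 18% did. The adjusted p was 1.82e-05 for *Ccne2*, 0.00303 for *Cdk2*, 0.000788 for *Cdk6*, 0.0391 for *Cdc25a* and 0.0491 for *Ccnd1*. For *Ccne2*, *Cdk2*, *Cdk4* and *Cdk6* every one of 15 tumors exceeded every skin sample, a separation found for 6.9% of genes. The median difference was 0.84 over the members and 0.02 over all genes. Muscle and adipocyte markers fell in the same comparison, 10 of 10 and 8 of 8 being called lower, and their part in the members' differences was not tested. The labels do not say whether tumors came from separate mice, so each p measures the spread between these samples.

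**Figure D1:**
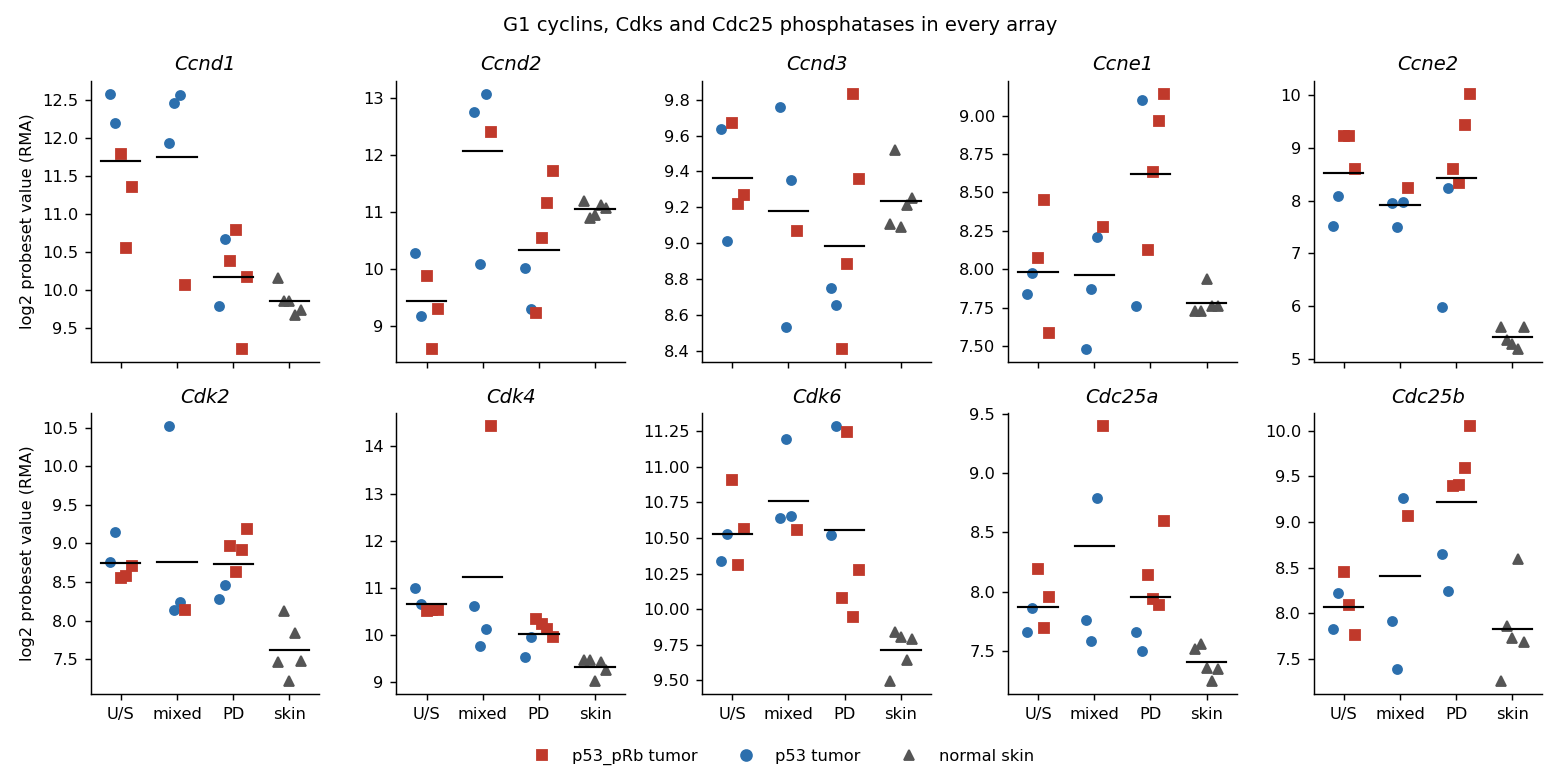
Log2 probeset values of the 10 members in every array, by class: undifferentiated or spindle (U/S), mixed, poorly differentiated (PD) and normal skin. Red squares are p53_pRb tumors, blue circles p53 tumors and grey triangles skin, and black lines are class means. All tumors lie above all skin samples for *Ccne2*, *Cdk2*, *Cdk4* and *Cdk6*. A p53_pRb mixed tumor reaches 14.43 for *Cdk4* and a p53 mixed tumor 10.52 for *Cdk2*.

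Among the D cyclins, *Ccnd1*, the form linked most to mitogen signals, differed between histological classes, which were not balanced over the genotypes. In undifferentiated or spindle tumors it measured 11.78, 10.55 and 11.36 in the p53_pRb tumors and 12.58 and 12.20 in the p53 tumors. The mixed p53 tumors gave 11.93, 12.46 and 12.56. The mixed p53_pRb tumor gave 10.06, within the range of poorly differentiated tumors. Poorly differentiated tumors ran from 9.22 to 10.78 with a median of 10.27, and skin had 10.15, 9.85, 9.85, 9.67 and 9.73. Poorly differentiated tumors overlapped skin by the probeset used. All undifferentiated or spindle tumors were above skin by it, a separation found for 19.8% of all genes.

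Class means of *Ccnd1* were 11.69 ± 0.78 in undifferentiated or spindle (SD, n = 5), 11.75 ± 1.16 in mixed (n = 4) and 10.16 ± 0.59 in poorly differentiated tumors (n = 6), against 9.85 ± 0.19 in skin (n = 5). The rise over skin was 1.84 (SE 0.43, limma adjusted p = 0.00192) in undifferentiated or spindle and 1.90 (SE 0.46, adjusted p = 0.0025) in mixed tumors. In poorly differentiated tumors the difference was 0.31 (SE 0.41, adjusted p = 0.588, 95% interval -0.55 to 1.18). The comparison over all tumors therefore pooled classes that differed, and its call was lost without any 1 of the 5 skin samples, of p53 tumors 1, 2, 3, 5, 6 and 7 or of p53_pRb tumors 1, 3, 5 and 6, with adjusted p of 0.0501 to 0.101. Both other *Ccnd1* probesets correlated with the one used, at r of 0.97 and 0.98 over the 20 arrays, a description across arrays that share classes. By both, undifferentiated or spindle and mixed tumors had means above skin. For poorly differentiated tumors they disagreed, with means of 9.79 against 10.02 in skin by the first and 9.07 against 8.31 by the second. By the first, the lowest undifferentiated or spindle tumor, at 10.34, was also below the highest skin sample, at 10.38.

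*Ccnd2*, a D cyclin with its own tissue pattern, ran otherwise. Undifferentiated or spindle tumors measured 9.89, 8.61 and 9.30 in p53_pRb tumors and 10.28 and 9.18 in p53 tumors, all below the skin values of 11.19, 10.90, 10.95, 11.13 and 11.07, a separation that 18.2% of all genes showed. Mixed tumors held the 3 highest values of the series, 12.40 in the p53_pRb tumor and 12.74 and 13.07 in p53 tumors, besides 10.10 in the remaining p53 tumor. Poorly differentiated tumors ran from 9.24 to 11.72 with a median of 10.29. In tumors it spanned 4.46 log2 units, and over all 15 tumors the difference from skin was -0.54 (SE 0.61, adjusted p = 0.53).

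Undifferentiated or spindle tumors had less *Ccnd2* than skin, by -1.60 (SE 0.52, adjusted p = 0.0183), a call lost without p53_pRb tumor 3 (-1.39, adjusted p = 0.0514). The dimmest other *Ccnd2* probeset (r of 0.70) went the other way, with means of 6.05 in these tumors and 5.51 in skin. By the remaining probesets (r of 0.94 to 0.99) their means were below skin too. Undifferentiated or spindle tumors also had less *Ccnd2* than mixed tumors, by -2.62 (SE 0.55, adjusted p = 0.00251), and this call was kept whichever sample was left out, with values of -3.28 to -2.29. Cell type markers moved with it: in the same comparison 9 of 10 macrophage, 7 of 10 endothelial and 5 of 9 fibroblast markers were called higher and 7 of 11 keratinocyte markers lower. The mean of the macrophage list was 10.38 to 11.08 in undifferentiated or spindle and 7.96 to 8.50 in mixed tumors, and that of the fibroblast list 11.89 to 12.69 in undifferentiated or spindle and 8.97 to 11.75 in mixed tumors. The part of these cell types in the *Ccnd2* difference was not tested. Mixed tumors exceeded poorly differentiated ones by 1.74 (SE 0.53, adjusted p = 0.0213), a call lost without p53 tumor 3 (adjusted p = 0.0657), p53 tumor 7 (0.0875) or p53_pRb tumor 4 (0.0581). Over skin, mixed tumors differed by 1.03 (SE 0.55, adjusted p = 0.142), and without p53 tumor 5 by 1.69 (adjusted p = 0.00709). *Ccnd3*, the third D cyclin, averaged 9.36 ± 0.29 in undifferentiated or spindle, 9.18 ± 0.52 in mixed and 8.98 ± 0.52 in poorly differentiated tumors, against 9.24 ± 0.17 in skin. It passed no test, but its probesets disagreed. The 2 others were dim, with means of 5.91 and 5.43 over the 20 arrays against 9.18 for the used one. They correlated with it at r of 0.30 and 0.03 and gave tumor differences of 0.55 and 1.04. The used one gave -0.07, so no direction can be given for *Ccnd3*.

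The kinase partners of the D cyclins were above skin in every tumor. *Cdk6* measured 9.94 to 11.28 in the 15 tumors, with a median of 10.56, and 9.49, 9.84, 9.80, 9.64 and 9.79 in skin. Class means were 10.53 ± 0.24 in undifferentiated or spindle, 10.76 ± 0.29 in mixed and 10.56 ± 0.58 in poorly differentiated tumors against 9.71 ± 0.14 in skin. Each class passed against skin, with adjusted p of 0.00737, 0.00191 and 0.00502 in that order, and no pair of tumor classes did. *Cdk6* was the member with the smallest spread over tumors, an SD of 0.41.

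*Cdk4* was above skin in all 15 tumors, yet the test over all tumors missed the threshold (1.23, SE 0.50, adjusted p = 0.0605). Of the p53_pRb tumors, 7 measured 9.96 to 10.54 and the other, p53_pRb tumor 4 of mixed histology, 14.43, which is 4.08 above the median of the 15 tumors. The p53 tumors measured 9.53 to 10.998 with a median of 10.12, and skin 9.47, 9.47, 9.02, 9.42 and 9.25. Without p53_pRb tumor 4 the difference from skin was 0.95 with an adjusted p of 0.000443, smaller in size but past the threshold, and without p53 tumor 4, the lowest tumor, it was 1.30 with an adjusted p of 0.0483. Both other *Cdk4* probesets gave the same pattern, with r of 0.998 and 0.997.

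The *Cdk4* promoter is shown because its window holds an unusual number of E-boxes, the letters CACGTG that Myc and related factors bind. RefSeq's window from 250 bases before to 50 bases after the start (GRCm38.p6, chr10:127063285-127063584, plus strand) has 4, printed in capitals, which begin at -172, -118, -98 and -11 from the start.
Cdk4 promoter: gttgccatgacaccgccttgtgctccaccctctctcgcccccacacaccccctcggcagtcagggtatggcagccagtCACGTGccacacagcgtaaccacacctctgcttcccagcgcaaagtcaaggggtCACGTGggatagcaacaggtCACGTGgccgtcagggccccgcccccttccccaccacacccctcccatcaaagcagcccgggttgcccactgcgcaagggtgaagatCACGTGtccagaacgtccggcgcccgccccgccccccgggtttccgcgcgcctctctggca
At least 1 such match was found in 7.15% of 32851 RefSeq promoter windows and at least 4 in 0.0244%, that is in 8 windows. *Myc* was higher in tumors than in skin by 1.07 (SE 0.39, adjusted p = 0.0361). In mixed tumors alone it did not pass against skin (0.04, SE 0.36, limma adjusted p = 0.937). In p53_pRb tumor 4 it measured 7.90, below the 9.15 to 10.40 of the other p53_pRb tumors. Among the mixed p53 tumors, p53 tumor 7 was lower still, at 7.27, and p53 tumors 3 and 5 were higher. Any part of *Myc* in the *Cdk4* values was not tested. A match describes letters, and binding was not measured.

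Of the E cyclins, *Ccne2* was above skin in every tumor. It measured 8.23 to 10.03 in p53_pRb tumors with a median of 8.92, 5.99 to 8.23 in p53 tumors with a median of 7.96, and 5.603, 5.35, 5.28, 5.19 and 5.61 in skin. The lowest tumor, p53 tumor 4, which is poorly differentiated, was 1.52 below the next p53 tumor and still above all skin. In skin *Ccne2* lay near or below the array medians of 5.59 to 5.63, and the deposited values hold no detection measure, so its skin level was not shown to be above background and its log2 differences from skin depend on that baseline. By class it averaged 8.53 ± 0.75 in undifferentiated or spindle, 7.92 ± 0.30 in mixed and 8.43 ± 1.39 in poorly differentiated tumors against 5.41 ± 0.19 in skin, and each class passed, with differences of 3.13, 2.51 and 3.03. No pair of tumor classes passed. Each of these calls was kept under all alternatives tried.

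*Ccne1*, the other E cyclin, depended on the probeset. By the one used it was raised in poorly differentiated tumors, at 8.62 ± 0.57 against 7.78 ± 0.09 in skin (0.84, SE 0.23, adjusted p = 0.00677). The 4 p53_pRb tumors of that class had 8.13, 8.64, 8.97 and 9.14 and the 2 p53 tumors 7.76 and 9.10, so that 5 of 6 exceeded all skin samples. Undifferentiated or spindle tumors, at 7.99 ± 0.32, and mixed tumors, at 7.96 ± 0.36, did not pass against skin by this probeset. Their differences from poorly differentiated tumors were -0.64 (adjusted p = 0.112) and -0.66 (adjusted p = 0.053). Without p53 tumor 4, the lowest of that class, both passed, at -0.81 (adjusted p = 0.023) and -0.83 (adjusted p = 0.00768), and the difference of mixed tumors also passed without p53_pRb tumor 2 (0.0303) or p53_pRb tumor 4 (0.0487). The second *Ccne1* probeset, dimmer on average, followed the first at r of 0.88, but by it every tumor of every class was above all skin samples. It ran from 6.68 to 7.96 in undifferentiated or spindle, 6.62 to 7.65 in mixed and 6.96 to 9.42 in poorly differentiated tumors, against 5.86 to 6.21 in skin. The differences from skin were 1.36, 1.21 and 2.19 in that order, with limma adjusted p over all probesets of 0.00623, 0.0188 and 8.81e-05. Over all tumors this probeset gave 1.65 (adjusted p = 0.000955), the one used 0.45 (adjusted p = 0.141) and the median of both 1.05 (adjusted p = 0.00694). A rise of *Ccne1* in undifferentiated or spindle and in mixed tumors was thus called by 1 of its 2 probesets. *Ccne2* and *Cdc25b* have 1 probeset each and no such check.

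*Cdk2*, the partner of cyclin E, measured 8.14 to 9.18 in p53_pRb tumors and 8.14 to 9.15 in 6 of 7 p53 tumors, against 7.46, 8.12, 7.22, 7.83 and 7.48 in skin. The seventh, p53 tumor 3 of mixed histology, reached 10.52. Class means were 8.75 ± 0.24 in undifferentiated or spindle, 8.76 ± 1.17 in mixed and 8.74 ± 0.34 in poorly differentiated tumors, against 7.62 ± 0.36 in skin. Each class passed against skin, by 1.13, 1.14 and 1.12, but the call of the mixed tumors was lost without p53 tumor 3 and p53_pRb tumor 4 together (0.57, adjusted p = 0.0855). Besides p53 tumor 3, the mixed tumors measured 8.14, 8.24 and 8.14, near the highest skin sample at 8.12. The other *Cdk2* probeset was dim, at 2.79 to 3.29 over the 20 arrays, correlated with the used one at r of 0.51 and gave a tumor difference of 0.01, so the *Cdk2* calls rest on 1 probeset. The promoter of *Cdk2* (GRCm38.p6, chr10:128705002-128705301, minus strand) and that of *Cdc25a* (chr9:109875329-109875628, plus strand) are shown as the 2 members with a match to an E2F site, in capitals.
Cdk2 promoter: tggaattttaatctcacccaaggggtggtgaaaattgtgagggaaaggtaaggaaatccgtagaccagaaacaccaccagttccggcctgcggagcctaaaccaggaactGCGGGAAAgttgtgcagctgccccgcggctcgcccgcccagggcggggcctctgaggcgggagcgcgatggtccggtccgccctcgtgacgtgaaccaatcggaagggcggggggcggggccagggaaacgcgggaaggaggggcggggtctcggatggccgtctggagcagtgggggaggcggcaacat
Cdc25a promoter: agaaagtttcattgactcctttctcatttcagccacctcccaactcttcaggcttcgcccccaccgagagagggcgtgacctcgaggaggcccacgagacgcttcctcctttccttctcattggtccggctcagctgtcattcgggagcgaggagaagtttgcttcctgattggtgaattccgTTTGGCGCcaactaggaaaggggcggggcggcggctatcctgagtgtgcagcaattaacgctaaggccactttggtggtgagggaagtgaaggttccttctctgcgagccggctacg
The letters searched on both strands were TTTCCCGC, TTTGGCGC, TTTCGCGC and TTTGCCGC, and 2.26% of all promoter windows held a match. It begins at -140 in *Cdk2*, there as the reverse complement, and at -67 in *Cdc25a*. RefSeq's table gave 8 windows for 7 members, and *Ccne1*, *Cdc25b* and *Ccnd3* held neither these letters nor an E-box. *Cdk6* held 1 E-box, at -220. *Ccnd1*, *Ccnd2* and *Ccne2* are not in the table.

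Of the Cdc25 phosphatases, *Cdc25a*, which acts on the G1 and S phase Cdks, measured 7.69 to 9.39 in p53_pRb tumors and 7.50 to 8.79 in p53 tumors, against 7.52, 7.56, 7.36, 7.25 and 7.35 in skin. The 2 highest values were of mixed tumors, p53_pRb tumor 4 at 9.39 and p53 tumor 7 at 8.79. Mixed tumors, at 8.38 ± 0.86, passed against skin (0.97, SE 0.29, adjusted p = 0.0105). The remaining mixed tumors, p53 tumors 3 and 5, measured 7.76 and 7.58, near the highest skin sample at 7.56. Undifferentiated or spindle tumors, at 7.87 ± 0.22, and poorly differentiated ones, at 7.96 ± 0.39, did not (adjusted p = 0.184 and 0.105). The call over all tumors was lost without any 1 of the 5 skin samples (adjusted p 0.0567 to 0.092), without p53_pRb tumor 1 (0.0511) and without p53_pRb tumor 8 (0.0514). A second *Cdc25a* probeset of like brightness correlated with it at r of 0.79 and gave a tumor difference of 0.70 (adjusted p over all probesets = 0.0169), while another, dimmer, at 4.39 to 4.95 over the arrays, had r of 0.08 and a difference of 0.03.

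*Cdc25b*, a phosphatase that acts later in the cycle and helps to start mitosis, was highest in poorly differentiated tumors. There it measured 9.39, 9.41, 9.59 and 10.05 in the 4 p53_pRb tumors and 8.65 and 8.24 in the 2 p53 tumors, while undifferentiated or spindle tumors had 8.46, 8.09 and 7.75 in p53_pRb tumors and 7.82 and 8.22 in p53 tumors. Mixed tumors ranged from 7.38 to 9.26 and skin from 7.25 to 8.59. Poorly differentiated tumors exceeded skin by 1.40 (SE 0.35, adjusted p = 0.0037), and 5 of 6 lay above every skin sample.

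**Figure D2:**
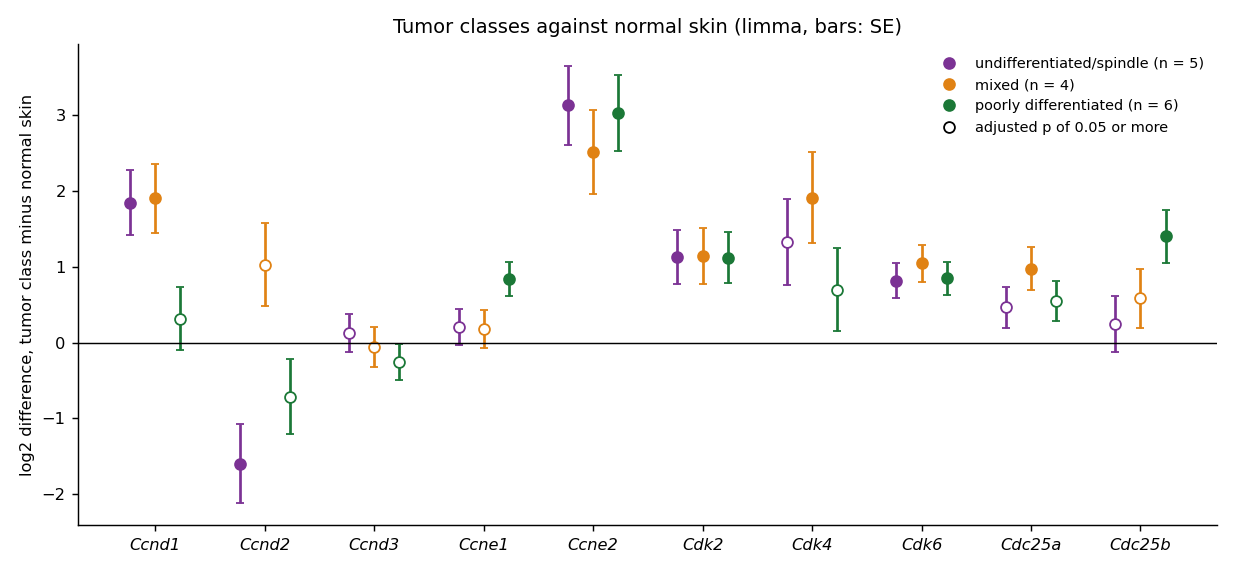
Log2 difference of each tumor class from normal skin for the 10 members (limma, bars are SE). Filled points passed an adjusted p of 0.05, open points did not. *Ccne2*, *Cdk2* and *Cdk6* are filled in all 3 classes, *Ccnd1* in the undifferentiated or spindle and mixed classes, *Cdc25b* in the poorly differentiated class alone, as is *Ccne1* by the probeset plotted though not by its other one, and *Ccnd2* is filled below 0 in the undifferentiated or spindle class.

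Counted by class, 4 members were higher and 1 lower than skin in undifferentiated or spindle tumors, where 22% and 20.2% of all genes were. In mixed tumors 6 were higher and 0 lower, with 21.9% and 21.5% of all genes. In poorly differentiated tumors 5 were higher and 0 lower, with 19.2% and 19.6% of all genes. With the *Actb* difference as a covariate 1 of the 4 calls in undifferentiated or spindle tumors was kept, and *Ccnd1*, *Cdk2* and *Cdk6* had adjusted p of 0.054, 0.089 and 0.109. The *Actb* difference itself did not overlap between these tumors (0.24 to 0.38) and skin (0.50 to 1.19), and its part was not tested further. *Cdk4* depended on the fit. All tumors of each class were above all skin, as was so for 19.8% of genes in undifferentiated or spindle, 17.4% in mixed and 14.3% in poorly differentiated tumors. Yet with 1 spread estimated over the 4 classes, p53_pRb tumor 4 included, it passed in the mixed class alone (1.91, SE 0.60, adjusted p = 0.0156). Fitted with skin and 1 class at a time, the adjusted p was 8.38e-06 in undifferentiated or spindle, 0.0981 in mixed and 0.00275 in poorly differentiated tumors.

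The grade comparison set undifferentiated or spindle tumors against poorly differentiated ones, the classes that lack and keep keratinocyte features. *Ccnd1* was higher by 1.53 (SE 0.37, adjusted p = 0.0122) and *Cdk4* by 0.62 (SE 0.15, adjusted p = 0.0125), while *Cdc25b* was lower by -1.15 (SE 0.29, adjusted p = 0.0148). *Cdk4* separated the classes, with 10.51, 10.53 and 10.54 in p53_pRb and 10.998 and 10.67 in p53 undifferentiated or spindle tumors, against 10.35, 10.23, 10.13 and 9.96 in p53_pRb and 9.53 and 9.96 in p53 poorly differentiated tumors, a separation found for 7.43% of genes. Thus 2 members were higher and 1 lower, where 12.7% and 9.9% of all genes were. Differences that did not pass were those of *Ccnd2* (-0.88), *Cdk6* (-0.03), *Cdk2* (0.01), *Ccne2* (0.10), *Cdc25a* (-0.08), *Ccnd3* (0.38) and *Ccne1* (-0.64).

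Other measures moved with grade. All 11 keratinocyte markers were lower in undifferentiated or spindle tumors, *Trp63* by -6.91 and *Sfn* by -6.05, and 7 of 10 endothelial and 4 of 10 macrophage markers were higher. The mean signal of the macrophage list was 10.38 to 11.08 in undifferentiated or spindle and 7.62 to 10.62 in poorly differentiated tumors. The *Actb* difference did not overlap between the classes, and with it as a covariate the differences were 1.51, 0.55 and -1.17 with adjusted p of 0.122, 0.168 and 0.126 for *Ccnd1*, *Cdk4* and *Cdc25b*. The part of these cell types and of RNA integrity in the result was not tested further. *Ccnd1* was also higher in mixed than in poorly differentiated tumors, by 1.59 (SE 0.44, adjusted p = 0.0126), with *Ccnd2* the 2 of 10 members called higher, where 13.5% of all genes were. Without p53 tumor 7 the *Ccnd1* difference was 1.32 (adjusted p = 0.0558). There 8 of 11 keratinocyte and 4 of 10 macrophage markers were lower and 1 of 10 macrophage markers higher, and their part was not tested. None was called lower, where 11.9% of all genes were, and between undifferentiated or spindle and mixed tumors 1 of 10, *Ccnd2*, was lower and 0 higher, where 9.15% and 10.2% of genes were.

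Between genotypes, p53_pRb tumors against p53 tumors, 0 of 10 members passed in limma, where 6 of 18193 genes did, or 0.033%. At an unadjusted p under 0.05 there were 963 genes, among them *Ccne2* and *Cdc25b* as higher and *Ccnd1* as lower, and the unequal-variance test called 0 members. *Ccne2* had the smallest p of the members. All 8 p53_pRb tumors, at 9.24, 8.60, 9.24, 8.23, 8.60, 8.33, 9.43 and 10.03, were above all 7 p53 tumors, at 7.51, 8.09, 7.96, 5.99, 7.51, 8.23 and 7.98, though the 2 nearest differ by 0.001. Such a separation was found for 8 genes, or 0.044%. The means were 8.96 ± 0.62 in p53_pRb tumors (SD, n = 8) and 7.61 ± 0.77 in p53 tumors (SD, n = 7), a difference of 1.35 (SE 0.34, 95% interval 0.62 to 2.08, limma adjusted p = 0.428). Over the alternatives tried, the adjusted p ran from 0.302 to 0.784.

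Histology was not balanced over the genotypes, so the differences were also taken within classes. For *Ccne2* the difference was 1.99 within the poorly differentiated class and 1.01 within the other tumors. The poorly differentiated class holds 2 p53 tumors, at 5.99 and 8.23, and without p53 tumor 4, the lower one, the value there was 0.86 against the single p53 tumor left, so the larger value in that class rests on that tumor. *Cdc25b*, at 8.98 ± 0.80 in p53_pRb tumors and 8.21 ± 0.61 in p53 tumors, differed by 0.77 (adjusted p = 0.941), with 1.17 in the poorly differentiated class and 0.22 in the others. *Ccnd1*, at 10.54 ± 0.79 in p53_pRb tumors and 11.74 ± 1.09 in p53 tumors, differed by -1.20 (adjusted p = 0.855), with -0.09 in the poorly differentiated class and -1.41 in the others. The test of whether the grade difference itself differed between genotypes called 0 of 18193 genes (0%), with 1283 at an unadjusted p under 0.05. Of the members, *Cdk2* (-0.89), *Cdk4* (-0.73) and *Cdc25b* (-1.09) were among these.

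**Figure D3:**
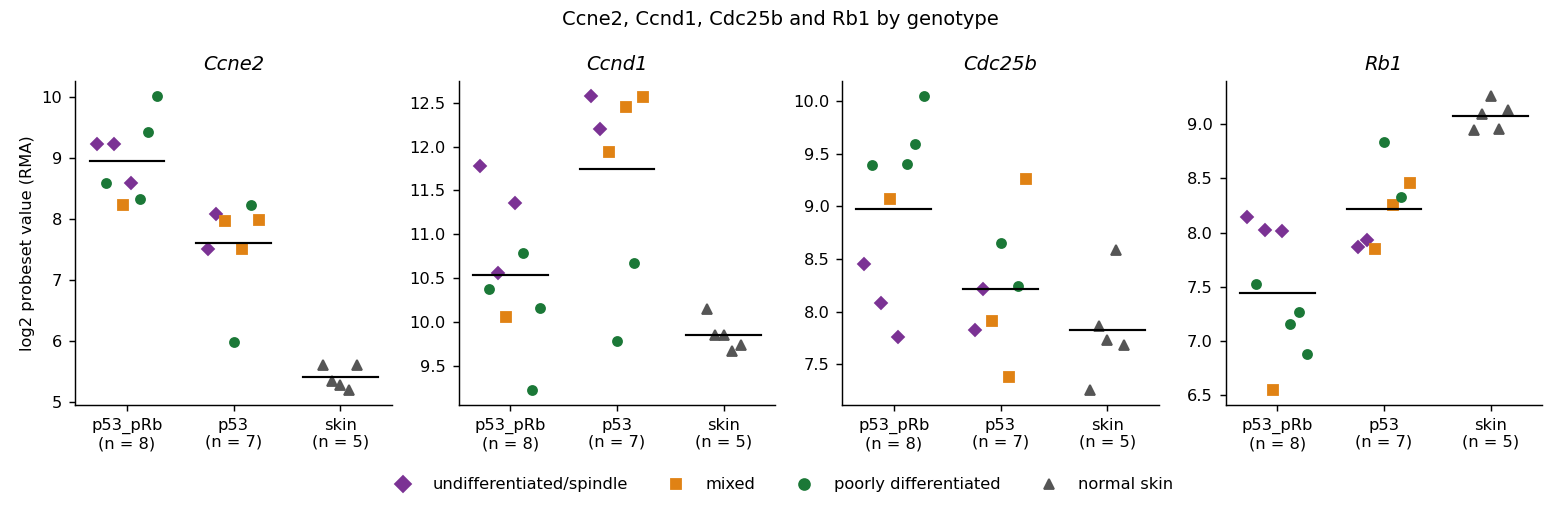
Log2 probeset values of *Ccne2*, *Ccnd1*, *Cdc25b* and *Rb1* in p53_pRb tumors, p53 tumors and normal skin. Points are arrays, their colour and shape give the histological class, and black lines are means. For *Ccne2* the lowest p53_pRb tumor and the highest p53 tumor are both at 8.23, and for *Rb1* the 3 undifferentiated or spindle p53_pRb tumors lie among the p53 tumors.

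The tumors with the highest *Cdk4* and *Cdk2* values were looked at in gene order, a choice made after these values were seen and given without a test. Both genes lie on mouse chromosome 10, with *Cdk2* 72 measured genes beyond *Cdk4* in RefSeq's order. For *Cdk4*, 10 of the 12 nearest measured genes were likewise highest in p53_pRb tumor 4 among the 15 tumors. For *Cdk2*, 8 of 12 were highest in p53 tumor 3. At least 8 of 12 were highest in a gene's own top tumor for 1.06% of 17894 genes, and at least 10 for 0.263%. Among the other 8 members the count was 0 to 4, with *Ccnd1* having 9 and *Cdk6* 6 measured neighbours.

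In p53_pRb tumor 4 the raised stretch ran from *Atp23* to *Gli1*, 23 measured genes with *Cdk4* among them. Against the median of the 13 other tumors, leaving out p53 tumor 3, 21 of the 23 were above all 13 and 20 by more than 1, with a median of 3.91. *Tspan31* next to *Cdk4* was raised by 3.19, *Os9*, a gene of endoplasmic reticulum quality control, by 3.64 and *Mettl1*, a tRNA methyltransferase, by 4.88. *Gli1*, a transcription factor of the hedgehog pathway, was at 13.98 in that tumor. The exceptions were *B4galnt1* (-0.87) and *Slc26a10* (0.13). Just beyond the ends, *4930484H19Rik* (0.18) and *Inhbe* (0.11) were not raised, and *Lrig3*, 10 genes before *Cdk4*, was raised by 4.19. *4930484H19Rik* and *Inhbe* were dim, with medians of 5.02 and 3.88 in the other tumors, so a rise could be missed.

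In p53 tumor 3 a run of raised genes began within that same stretch and went on past *Cdk2*, with gaps. The 6 genes from *Dctn2* to *Gli1* were above all 13 other tumors in both tumors, with medians of 4.21 in p53_pRb tumor 4 and 2.65 in p53 tumor 3, and *Gli1* reached 12.47 in p53 tumor 3. Of the 17 genes from *Atp23* to *Kif5a*, *Cdk4* included, 15 were above the others in p53_pRb tumor 4 and 1 in p53 tumor 3, where *Cdk4* itself was 0.39 above their median. Farther on the pattern turned. Of the 12 genes from *R3hdm2* to *Zbtb39*, 1 was above the others in p53_pRb tumor 4 and 10 in p53 tumor 3. Before and after these, *Inhbe* and *Inhbc* and the 8 genes in a row from *Gpr182* to *Hsd17b6* were above the others in neither tumor. They were dim, with medians in the remaining tumors of 3.50 (*Rdh16*) to 5.31 (*Sdr9c7*), so a rise could be missed there. Among them *Rdh9* was 2.71 above the median of the 13 others in p53 tumor 3, though not above all. Of the 43 genes from *Prim1*, a primase subunit, to *Rdh5*, 1 was above the others in p53_pRb tumor 4 and 31 in p53 tumor 3, 19 by more than 1, *Prim1* by 2.22, *Dgka* by 2.57 and *Erbb3* by 1.74 among them. From *Dctn2* to *Rdh5* that made 47 of 71 genes in p53 tumor 3. Before the *Cdk4* stretch, *Lrig3* (6.04), *Srgap1* (5.59) and *Slc16a7* (4.44) were raised in p53 tumor 3 too. DNA copy number was not measured. Without both tumors, *Cdk4* was above skin by 0.93 (adjusted p = 0.00071), and its difference of undifferentiated or spindle from mixed tumors, -0.59 over all samples (adjusted p = 0.567), turned direction and passed at 0.70 (adjusted p = 0.0226). The only mixed tumors left there were p53 tumors 5 and 7, at 9.78 and 10.12. Since p53_pRb tumor 4 was picked for its *Cdk4* value, this change of *Cdk4* is no independent result.

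**Figure D4:**
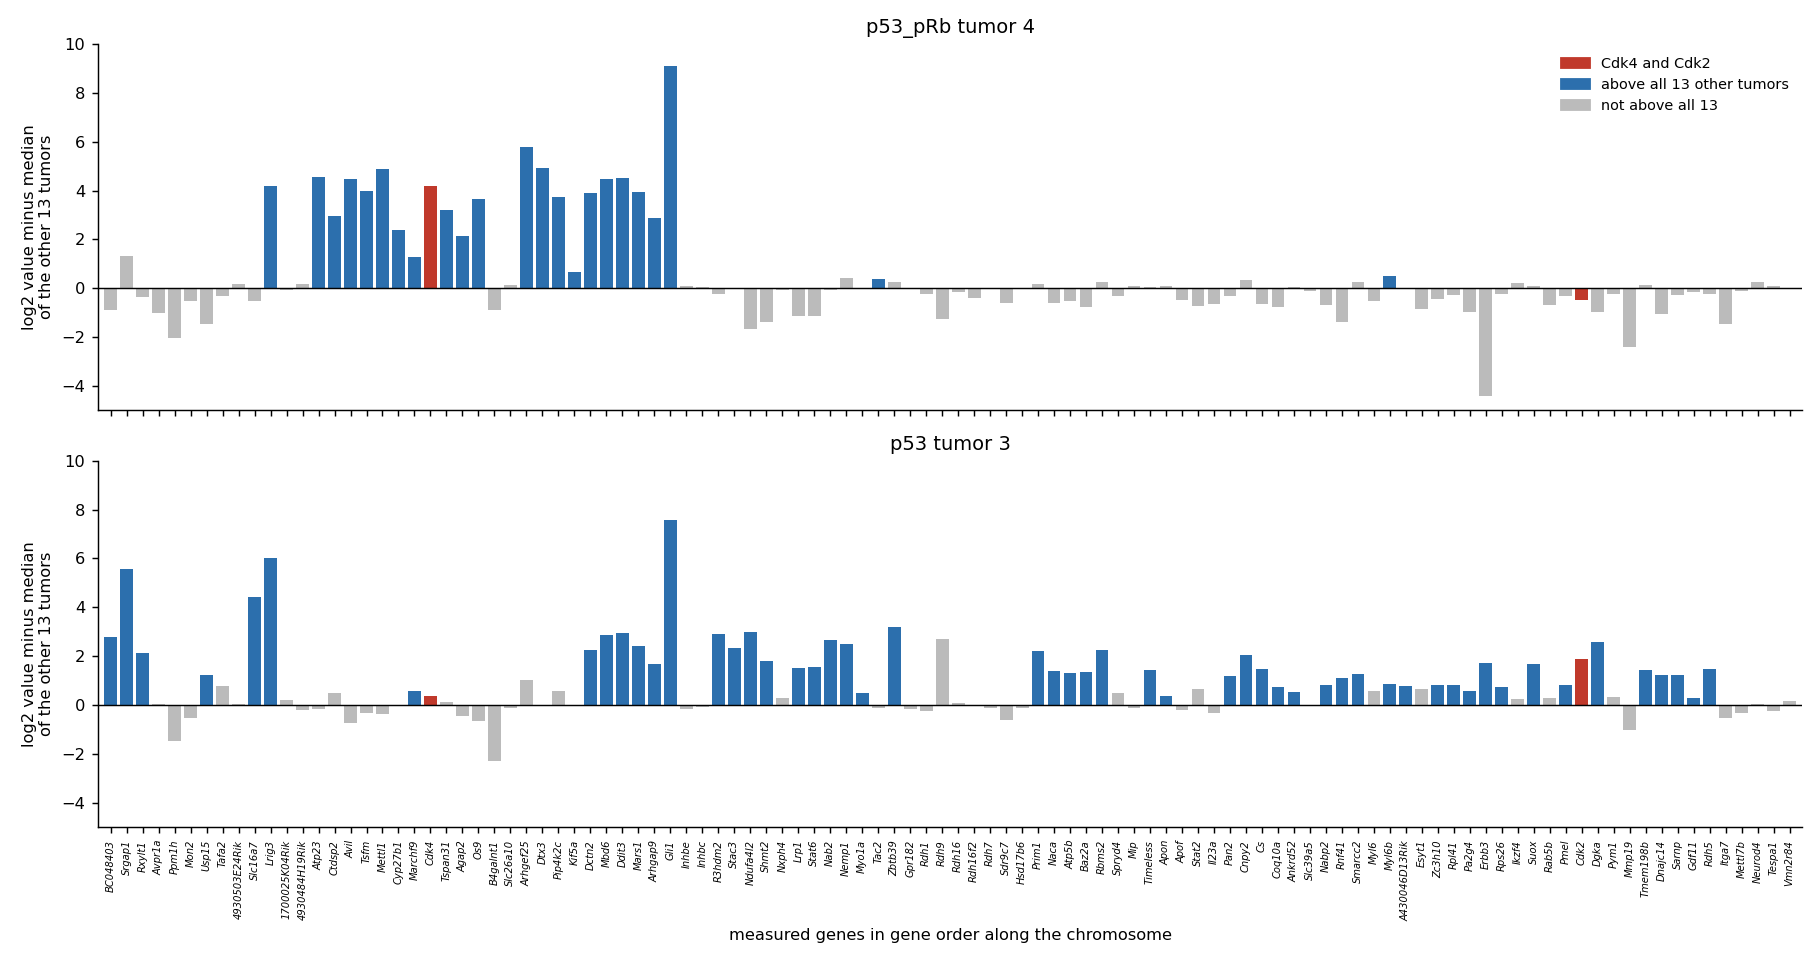
Log2 value minus the median of the other 13 tumors for measured genes in order along mouse chromosome 10, in p53_pRb tumor 4 (above) and p53 tumor 3 (below). Red bars are *Cdk4* and *Cdk2*, blue bars genes above all 13 other tumors, grey bars the rest. The blue bars of p53_pRb tumor 4 cover *Atp23* to *Gli1* with *Cdk4*, those of p53 tumor 3 run mainly from *Dctn2* to *Rdh5* with *Cdk2*, and both share *Dctn2* to *Gli1*.

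The genes whose values followed the members most closely over the 20 arrays are given by Pearson's r as a description, since arrays of 1 class share much. *Ccne2* had *Gins2* (0.946) and *Donson* (0.941), and *Cdk6* had *Mthfd2l* (0.900) and *Bud31* (0.892). *Cdk2* had *Nup107* (0.923) and *Shmt2* (0.918), of which *Shmt2* lies in the stretch raised in p53 tumor 3. Without that tumor their r was 0.865 and 0.887, and the nearest were *Dph2* (0.911) and *Nup93* (0.909). For *Cdk4* they were *Msl3l2* (0.933) and *Atp23* (0.927), and *Atp23* lies in the stretch described above. These rest on p53_pRb tumor 4, as without it r was 0.703 and 0.718 and the nearest were *Sf3b4* (0.933) and *Cdkn2a* (0.927). For *Ccnd1* they were *Spred1* (0.857) and *Ankrd28* (0.855), for *Ccnd2* *Gpc3* (0.859) and *Arhgef26* (0.853), and for *Ccnd3* *Alcam* (0.737) and *Fam171a1* (0.729). *Ccne1* had *9530059O14Rik* (0.868) and *Ttc34* (0.836), *Cdc25a* had *Dnajc9* (0.884) and *Smarca4* (0.879), and *Cdc25b* had *Prelid3b* (0.844) and *Aplp1* (0.826).

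Around the members, the regulators of the G1 kinases moved both ways in tumors against skin. The counts that follow stand beside 17.7% of all genes called higher and 18% called lower. Of 7 Cdk inhibitors 3 were higher and 0 lower, led by *Cdkn2a*, which encodes p16Ink4a and p19Arf, by 4.63 (adjusted p = 3.73e-05) and *Cdkn2b*, p15Ink4b, by 2.35 (adjusted p = 0.000303). *Cdkn1a* measured -1.19 (adjusted p = 0.137). Of the 3 pocket proteins *Rbl1* rose by 1.62, and *Rb1* and *Rbl2* fell by 1.27 and 0.81. The *Rb1* value pools p53_pRb tumors, in which the gene was deleted by design, with p53 tumors. Of 10 E2F and DP factors 5 were higher and 0 lower, *E2f7* by 2.80 and *E2f8* by 2.47. The kinase that activates Cdks had *Cdk7* and *Ccnh* higher, by 0.95 and 0.77, of its 3 subunits. Of 9 genes of cyclin and Cdk turnover, 3 were higher, *Skp2* by 2.61, *Cks2* by 2.55 and *Cks1b* by 2.39, and 2 lower, *Btrc* by -0.39 and *Fbxw7* by -0.33. Of the inhibitory kinases and *Cdc25c*, *Pkmyt1* was higher by 0.55, 1 of 3.

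Nearly all listed genes that act after G1 were higher. All 15 measured targets of G1 exit were called higher, *Cdc6* by 3.48 and *Tk1*, thymidine kinase, by 2.96, as were all 10 mitosis markers, *Bub1* by 4.30 and *Cdc20* by 3.05, and 4 of 5 later cyclins and *Cdk1*, *Cdk1* itself by 2.96. Many of these genes, *Cdc6*, *Mcm5*, *Bub1* and *Cdc20* among them, are in signatures the paper drew from genes overexpressed in these same tumors. The counts are therefore no independent result. The mean of the mitosis list was 8.86 to 10.28 in tumors and 6.61 to 6.98 in skin, and its part in the members' differences was not tested. Of 13 mitogen inputs to cyclin D, 3 were higher, *Fosl1* by 2.74 and *Myc* by 1.07 among them, and 2 lower, *Egfr* by -1.68 and *Lef1* by -0.55, counts near those over all genes.

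Between undifferentiated or spindle and poorly differentiated tumors, where 12.7% of all genes were higher and 9.9% lower, 0 of 15 G1 exit targets and 0 of 10 mitosis markers passed, with medians of 0.16 and 0.35, where *Ccnd1*, *Cdk4* and *Cdc25b* did. The Cdk inhibitors did differ, with 4 of 7 higher, *Cdkn1c* by 2.79 and *Cdkn2b* by 1.79 among them, and *Cdkn1a* lower by -2.04. All 3 subunits of the Cdk-activating kinase were higher, *Mnat1* by 0.88 and *Cdk7* by 0.69 among them. Of 10 E2F and DP factors 2 were higher, *E2f6* by 0.62 and *E2f3* by 0.58, and *E2f2* was lower by -1.30, counts near those over all genes. Of 13 mitogen inputs 0 were higher and 7 lower, the receptors *Erbb3* by -4.51 and *Fgfr2* by -3.00 among them. In the genotype comparison no gene of any of these lists passed in limma, in a comparison that called 6 genes in all. At an unadjusted p under 0.05, where 2.65% of all genes were higher and 2.64% lower, 8 of 15 G1 exit targets were higher, with *Cdt1* at 0.90 and *Mcm5* at 0.94, as were 2 of 7 Cdk inhibitors, *Cdkn1a* at 1.56 and *Cdkn2c* at 0.69, and 0 of 10 mitosis markers. At the same level 8 of 10 skeletal muscle markers were lower in p53_pRb tumors, with *Myh1* at -2.90 and *Acta1* at -2.44, and their part in the genotype differences was not tested.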

How the data were processed

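Total RNA of 15 tumors and 5 skin samples was hybridised to 1 Affymetrix MOE430 2.0 array each. The authors processed the arrays with RMA (version not given in the sources used here), and the deposited values are log2 signals of 45101 probesets, between 2.337 and 14.718. RMA makes arrays alike in distribution, so a change shared by most genes would not show, and values of different probesets are not compared in level. No genome build is named. Probesets were named through GEO's platform annotation, with symbols and gene order from RefSeq (GRCm38.p6). After 64 array controls were left out, 34945 probesets had 1 gene symbol, 932 several and 9160 none, and 204 kept a gene ID that RefSeq does not list. Promoter sequences are RefSeq's.

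For each of 18193 genes the probeset with the highest mean was tested with limma 3.58.1 (R 4.3.3), by two-sided tests whose p-values were adjusted across all genes (Benjamini-Hochberg), and a call at an adjusted p under 0.05. The methods' 2-group comparisons (tumors over skin, grades, genotypes) were fitted on their samples alone, and the comparisons with mixed tumors or of single classes with skin in 1 fit of 4 classes over 20 arrays. A model with grade, genotype and their interaction tested whether grade differences differed. All 10 members are described, and from each list of pathway or marker genes up to 2 genes per direction with the smallest p are named, besides a few chosen after their values were seen. The members and lists were chosen with earlier results of these data known. The number of arrays limits the precision. The scripts were tested on simulated data. Alternatives were other probeset summaries, a filter on dim genes (mean under 6), centring, covariates, other groupings of mixed tumors, and leaving out samples.

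Same-numbered samples of different groups were compared by the correlation of their deviations from group means. It ran from -0.478 to 0.64 over 17 pairs and passed 0.1 in 3. The highest were of the tumors numbered 6, both poorly differentiated (0.64), and of those numbered 1, both spindle cell carcinomas (0.63). Histology was not taken out of these values, so pairing by number was neither shown nor excluded.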

Additional observations from a re-analysis of the deposited data

Results flagged for a closer look

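Of 60 member and group combinations with 4 to 8 samples, 7 had a highest or lowest sample set apart from the others. The rule flags about 1 in 20 in independent groups of normally spread values. Each tumor counts here both in its class and in its genotype, and genotype groups pool classes. The rate of 1 in 20 is therefore no baseline for this count. Values are log2 signals. *Cdk4* in p53_pRb tumor 4, at 14.4302, stood apart from the other p53_pRb tumors, of which the nearest was 10.54. *Cdk2* in p53 tumor 3, at 10.5186, stood apart among the 4 mixed tumors (nearest 8.24) and among the 7 p53 tumors (nearest 9.15). *Cdc25a* in p53 tumor 7, at 8.7928, stood apart from the other p53 tumors (nearest 7.86). *Cdk6* in p53 tumor 5, at 11.1926, stood apart among the mixed tumors (nearest 10.65). *Ccne2* in p53 tumor 4, at 5.9861, was below the other p53 tumors (nearest 7.51). *Ccne1* in normal skin 3, at 7.9363, was above the other skin samples (nearest 7.76).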

How the results depend on the processing

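Of 90 member values (10 members in 9 comparisons), 27 passed. Their 537 alternatives kept the call in 485 cases and lost it in 52, and none turned its direction. Values that had not passed gained a call in 31 of 1273 alternatives and changed sign in 77, in 3 of them with a call. US below stands for undifferentiated or spindle, PD for poorly differentiated, and the cause of each change was not tested.

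With the *Actb* difference as a covariate, US over PD gave -0.84 for *Ccne2*, -0.0014 for *Cdk2* and 0.0043 for *Cdc25a*, *Ccne1* gave -0.031 in US over skin and -0.083 in US over mixed, and the calls were 0 higher in US over PD, 1 higher in US over skin and 1 lower in mixed over PD. With arrays centred on their medians, 3 members were higher in tumors over skin, *Cdk6* was 0.0047 in US over PD and *Cdk2* 0.032 in US over mixed. Without dim genes, 1 member was lower in mixed over PD. A fit of 2 classes only left 0 higher in mixed over PD. With genotype as a covariate, *Ccne2* was 0.050 and *Cdk2* -0.018 in mixed over PD, *Ccnd1* 0.28, *Ccne1* -0.066 and *Cdk2* 0.023 in US over mixed, with 2 lower there. With class as a covariate, *Ccnd2* was 0.33 in p53_pRb over p53. By the median of probesets, *Ccnd3* was 0.76 (adjusted p = 0.00799) in tumors over skin, 0.63 in PD over skin, 0.81 (0.0257) in mixed over skin, -0.31 in p53_pRb over p53 and 0.46 in the interaction, *Cdk2* was -0.050 in US over PD, -0.020 in mixed over PD and 0.019 in p53_pRb over p53, *Cdc25a* was 0.051 in US over PD and *Ccnd1* -0.026 in PD over skin. With mixed tumors counted as PD, US over PD had 0 higher and 0 lower. With them counted as US, it had 1 higher, and *Ccnd2* was 0.28, *Ccne2* -0.17, *Cdk6* 0.075 and *Cdc25a* 0.14. Within PD, p53_pRb over p53 was 0.998 for *Ccnd2* and 0.55 for *Cdk2*, and without p53 tumor 4, a setting chosen after seeing the data that leaves 1 p53 tumor, 1.35 for *Ccnd2*, 0.46 for *Cdk2* and -0.38 for *Ccne1*. The unequal-variance test called 8 higher in tumors over skin. Without the mixed tumors, 1 was lower there, *Ccnd2* (-1.12, adjusted p = 0.0387).

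Without p53_pRb tumor 4 and p53 tumor 3 together, a setting chosen after seeing the data, *Cdk2* was 0.28 in p53_pRb over p53, *Ccnd3* -0.038, *Cdk2* -0.55 and *Cdk4* -0.077 in mixed over PD with 1 higher, and *Ccne1* -0.056, *Cdk2* 0.56 and *Cdk4* 0.70 in US over mixed with 1 higher. The mixed tumors were then p53 tumors 5 and 7 alone.

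Leaving out 1 sample at a time gave, in US over mixed, -0.62 to 0.23 for *Ccnd1*, -0.033 to 0.38 for *Ccnd3*, -0.13 to 0.13 for *Ccne1*, -0.22 to 0.58 for *Cdk2* and -1.07 to 0.48 for *Cdk4*. In US over PD it gave -0.39 to 0.42 for *Ccne2*, -0.17 to 0.046 for *Cdc25a*, -0.089 to 0.10 for *Cdk2* and -0.15 to 0.12 for *Cdk6*. In p53_pRb over p53 it gave -0.61 to 0.084 for *Ccnd2* and -0.19 to 0.20 for *Cdk2*, in mixed over skin -0.25 to 0.16 for *Ccnd3*, in mixed over PD -0.57 to 0.23 for *Cdk2*, and in the interaction -0.83 to 0.51 for *Ccne1* and -1.89 to 0.36 for *Ccne2*. Calls ran from 3 to 6 higher in tumors over skin, 0 to 3 higher and 0 to 1 lower in mixed over PD, 0 to 1 lower in US over skin and 1 to 2 lower in US over PD. In mixed over PD, *Cdc25b* passed without p53 tumor 6 (-1.01, adjusted p = 0.0476) and *Cdk4* without p53 tumor 5 (1.70, adjusted p = 0.0396).

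With the replicate number as a block, tumors over skin had 4 higher and 0 lower, *Cdc25a* being lost (0.58, adjusted p = 0.0988), and p53_pRb over p53 had 0 and 0. US and PD tumors share too few numbers for a block. No signal over background is given in the deposited values, so dim probesets could not be marked as undetected.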
